A study of Homo sapiens with 4 samples.

Results

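The endoplasmic reticulum (ER) unfolded protein response was followed through 37 of its genes, a named list of stress sensors, transcription factors, chaperones, disulfide-forming enzymes, degradation factors and translocon subunits. A listed gene counted as a member when its current NCBI symbol was on that list and its CPM (counts scaled to a fixed library total) exceeded 1 in at least 2 libraries. All 37 passed, among 12559 genes retained out of 23459 listed. The member nearest to the CPM limit was DERL3, with 4.34 to 5.27 CPM, and 0 members fell outside it. The samples were wild type hTERT RPE-1 cells, an established human line from the retinal pigment epithelium immortalized with telomerase. Every culture was first starved for 48 h in 0.1% serum. Merbarone, a catalytic inhibitor of DNA topoisomerase II, was then added at 200 μM to every culture, for 4 h in 2 libraries and for 8 h in 2 others. Untreated cells were not analysed here, so all changes below are those of 8 h against 4 h of the drug, and drug time cannot be told apart from time in low serum.

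Proteins that enter the ER are folded there by chaperones and by enzymes that form disulfide bonds, and those that fail are pulled back to the cytosol and destroyed by ER-associated degradation (ERAD). When unfolded proteins accumulate, the sensors IRE1 (gene ERN1), ATF6 and PERK (gene EIF2AK3) set off the unfolded protein response. IRE1 splices the XBP1 transcript to yield an active transcription factor, ATF6 is cut in the Golgi by the site-1 and site-2 proteases to release another, and PERK slows translation and favours ATF4. XBP1 and ATF6 raise chaperone and ERAD genes, and cells that secrete much protein depend on them.

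Depth was 8064450 to 10324697 counts per library, with the smallest at 8 h (replicate 2). Of 10 marker genes of differentiated pigment epithelium, TYR and RGR had 0 counts in every library and RPE65 had 2 to 7, while the epithelial keratin gene KRT8 stood at 348 to 394 TMM-CPM (CPM after TMM scaling of the libraries). Of the other keratin genes, KRT18 was lower at 8 h (log2 fold change −0.51, edgeR adjusted p = 3.72e-05), KRT7 was higher (0.46, edgeR adjusted p = 0.000616) and KRT19 had 0 counts throughout. The cultures thus carried keratin transcripts but almost none of the pigment epithelium's defining ones. Leukocyte markers summed to 0.662 to 1.39 TMM-CPM and endothelial markers to 0.473 to 0.778, with 0 counts of CD3E throughout. The neuronal gene SYT1 was present at 49.3 to 60.4 TMM-CPM and RBFOX3 was at 0. Pigment epithelium markers together stood at 3.78 and 4.21 TMM-CPM at 4 h and at 5.76 and 6.74 at 8 h, and the part of this in the results was not tested. The study calls its replicates biological without saying whether cultures were grown separately, so p-values measure the spread between these 2 libraries per time. In such bulk samples, fewer cells of a kind and less RNA per cell cannot be told apart.

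From 4 h to 8 h, 15 of the 37 members rose and 0 fell at an adjusted p below 0.05 (edgeR), which is 40.5% higher, where 19.9% of all retained genes were higher and 18.8% lower. The genes that rose were the sensor gene ERN1, the transcription factor genes XBP1 and CREB3L2, the chaperone genes DNAJB9, HSPA5, HYOU1 and CANX, the disulfide isomerase gene P4HB, 6 ERAD genes and the translocon gene SEC61B. The rises were small, with a median of 1.39-fold, and 5 exceeded 1.5-fold. DNAJB9 was the single member past the study's thresholds for a differentially expressed gene (DEG, adjusted p below 0.05 and absolute log2 fold change above 1), in a background of 1.45% of genes higher and 3.88% lower by that rule. At an unadjusted p below 0.05, 16 members were higher and 0 lower, and Limma-Voom and DESeq2 each gave 15 and 0. The median log2FC (log2 fold change, 8 h against 4 h) of the members was 0.13 and that of all retained genes was 0.00. Scaling by library size alone lowered all values, so that 13.5% of all genes were higher and 26.2% lower, and of the members 12 were higher and 1, PDIA6, was lower.

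Members were mostly abundant, and abundant genes of any kind tended to be higher at 8 h. Retained genes were split by mean level into 5 bands of equal size. In the most abundant band, 39.3% of all genes were higher and 14.9% lower, and 10 of its 20 members were higher and 0 lower. In the bands below it, from the least abundant upward, 0 of 2, 1 of 2, 3 of 7 and 1 of 6 members were higher, where 5.57%, 10%, 17.6% and 27.1% of all genes were. No member was lower in these bands, where 14.5%, 23.4%, 21.9% and 19.5% of all genes were. Both 8 h libraries lay above both 4 h libraries in 20 members and below them in 2, against 34.8% and 34.9% of all retained genes. At 4 h the members held 0.984% and 0.992% of a library's counts, which became 1.07% and 1.05%. With each library's trend over mean level removed, an alternative chosen after seeing the data, 13 members were higher and 2, CALR and PDIA6, were lower, the calls of CANX, P4HB and OS9 were lost, and ERO1B was added.

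**Figure D1:**
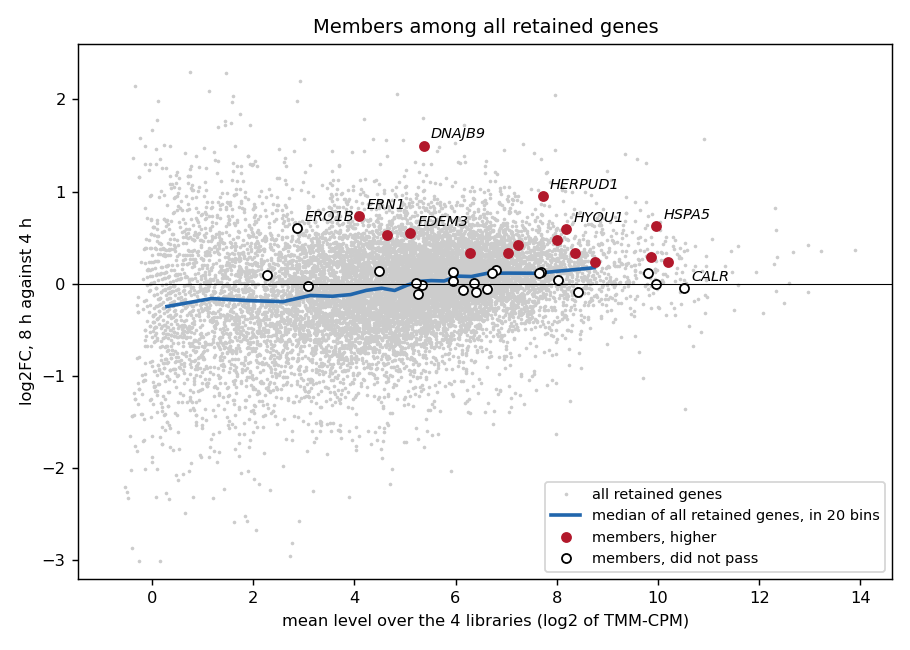
Log2FC of 8 h against 4 h (vertical axis) against the mean level over the 4 libraries in log2 TMM-CPM (horizontal axis), with all retained genes as grey points and their median in 20 bins as a line. The 37 members are circles, filled for the 15 that rose, of which DNAJB9 and HERPUD1 stand highest, and the line rises with level.

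Promoter sequence was compared next. The ER stress response element (ERSE), the classical site of this response, has the letters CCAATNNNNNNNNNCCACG, and a shorter form, ERSE-II, has ATTGG, then 1 base of any kind, then CCACG. Exact copies were sought on both strands in the 250 bases before each annotated start of a gene, in RefSeq windows of GRCh38.p14 that were then placed on GRCh37 by exact match. Windows were found for 34 members, and 11 of them (32.4%) held an exact ERSE or ERSE-II, against 0.304% of the retained genes with a window and 0.157% of all genes with one. Members were named as genes of this response, and the ERSE is its classical site, so this contrast is not independent of the list. The bare half-sites were common everywhere, with CCACG in 70.6% of these members and 52.4% of retained genes, and CCAAT in 79.4% and 41.8%. The search for ERSE-II and for the 8-base element TGACGTGG was added after the windows were seen.

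The stretches below are shown because they carry the elements and belong to members that did and did not rise. Capitals mark the fixed letters of the element in its forward or reverse orientation, and each runs 5′ to 3′ on the strand of the gene.

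HSPA5, chr9:128003665-128003693, minus strand: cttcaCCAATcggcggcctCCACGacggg

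XBP1, chr22:29196586-29196614, minus strand: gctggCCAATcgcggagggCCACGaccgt

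CANX, chr5:179125774-179125802, plus strand: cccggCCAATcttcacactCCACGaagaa

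HSP90B1, chr12:104323989-104324017, plus strand: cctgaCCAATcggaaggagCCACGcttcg

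CALR, chr19:13049193-13049221, plus strand: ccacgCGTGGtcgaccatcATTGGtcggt

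CRELD2, chr22:50312197-50312225, plus strand: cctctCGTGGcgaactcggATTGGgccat

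HERPUD1, chr16:56965928-56965956, plus strand: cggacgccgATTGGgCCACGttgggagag

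HYOU1, chr11:118928082-118928110, minus strand: gccccgtgaCGTGGtCCAATcccaggccg

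HYOU1, chr11:118927976-118928004, minus strand: ggcctgggaCGTGGtCCAATgagtacgcg

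SDF2L1, chr22:21996394-21996422, plus strand: cctcggaagCGTGGaCCAATcaaaaccct

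Of the 8 members with an exact ERSE, HSPA5, XBP1 and CANX rose, while HSP90B1, CALR, CRELD2, PDIA6 and ERO1B did not pass. The stretches of CANX and HSP90B1 overlap annotated exons. Not every window of a gene held the element, which lay in 2 of 4 for CANX and in 1 of 2 for XBP1 and for PDIA6. HSP90B1 had 2 copies and a log2FC of 0.00. Of the 3 with ERSE-II, HERPUD1 and HYOU1 rose and SDF2L1 did not pass, and HYOU1 had 2 copies, the farther of which overlaps a TGACGTGG. The 23 members with neither element held 10 that rose, among them DNAJB9, and the 11 with an element held 5. Of all retained genes 19.9% were higher, and of those in the most abundant band 39.3%. The medians of log2FC were 0.29 with an element and 0.13 with neither, with ranges of −0.09 to 0.95 and −0.11 to 1.5. The differences between these groups were not tested. A match is a match of letters and does not show binding.

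The promoter of HSPA5 is given at greater length beside that of DNAJB9, as the best known ERSE gene and the largest riser. Each stretch is the longest part of the 250-base window free of annotated exons, 211 bases for HSPA5 and 116 for DNAJB9. Capitals mark CCAAT and CCACG on either strand. They were counted within the stretch only, so the counts cover unlike lengths. The HSPA5 stretch covers bases 250 to 40 before its start (chr9:128003662-128003872, minus strand), with 4 CCAAT and 1 CCACG, and the DNAJB9 stretch covers bases 123 to 8 before its start (chr7:108210195-108210310, plus strand), with 1 CCAAT and 2 CCACG.

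HSPA5: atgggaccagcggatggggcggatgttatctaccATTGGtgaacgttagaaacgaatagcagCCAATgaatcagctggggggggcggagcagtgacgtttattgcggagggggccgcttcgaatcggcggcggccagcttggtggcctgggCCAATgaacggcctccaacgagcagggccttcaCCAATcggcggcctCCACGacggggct

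DNAJB9: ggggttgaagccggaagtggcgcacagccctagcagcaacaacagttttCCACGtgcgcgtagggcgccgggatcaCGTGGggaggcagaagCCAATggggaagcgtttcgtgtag

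**Figure D2:**
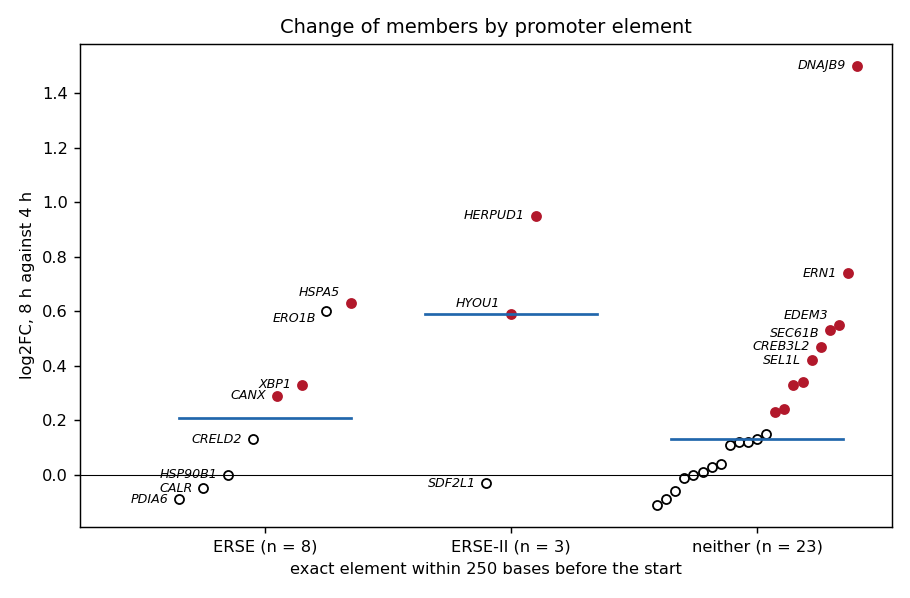
Log2FC of 8 h against 4 h for the 34 members with a promoter window, grouped by the exact element found in the 250 bases before the start, with filled circles for members that rose and a bar at each group's median. Each group holds members that rose and members near 0, and DNAJB9 lies at the top of the group with neither element.

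Of the 7 sensors, transcription factors and proteases, ERN1, XBP1 and CREB3L2 rose (42.9%), and ATF6, ATF6B and both protease genes did not pass. The share of higher genes was 19.9% over all retained genes and 39.3% in the most abundant band. ERN1 (NCBI Gene 2081, chromosome 17, 62116440 to 62208179, minus strand, hg19), which encodes the sensor IRE1, had 13.1 and 12.5 TMM-CPM at 4 h and 21.9 and 20.7 at 8 h. Both 8 h libraries lay above both 4 h libraries, a rise of 1.67-fold (95% interval 1.33 to 2.09, edgeR adjusted p = 0.000944). This rests on 132 to 205 counts per library, the thinnest depth of the members that rose. XBP1 (NCBI Gene 7494, chromosome 22, 29190543 to 29196585, minus strand), whose transcript IRE1 splices, had 286 and 293 TMM-CPM at 4 h and 366 and 365 at 8 h. The 8 h libraries were close together and above both at 4 h (log2FC 0.33, standard error 0.07, edgeR adjusted p = 0.00115). Counts per gene do not separate the spliced from the unspliced XBP1 transcript, so its activation was not measured.

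CREB3L2, a membrane-bound transcription factor released by the same proteases as ATF6, stood at 214 TMM-CPM in both 4 h libraries and at 284 and 311 at 8 h. The times did not overlap, and the rise was 1.39-fold (95% interval 1.24 to 1.55, edgeR adjusted p = 8.29e-05). ATF6, the cleaved sensor itself, had 104 and 108 TMM-CPM at 4 h and 119 and 117 at 8 h, which did not overlap but did not pass (log2FC 0.15, edgeR adjusted p = 0.148). Its paralog ATF6B had 86.0 and 89.0 at 4 h and 87.5 and 76.7 at 8 h, with overlapping times and a log2FC of −0.09 (95% interval −0.28 to 0.10). The protease genes MBTPS1 and MBTPS2, which encode site-1 and site-2 protease, had log2FC of 0.13 and 0.12 and did not pass. Per kilobase of canonical transcript, the level of ATF6 was 0.427 and 0.426 of that of ATF6B at 4 h, and 0.480 and 0.534 at 8 h.

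**Figure D3:**
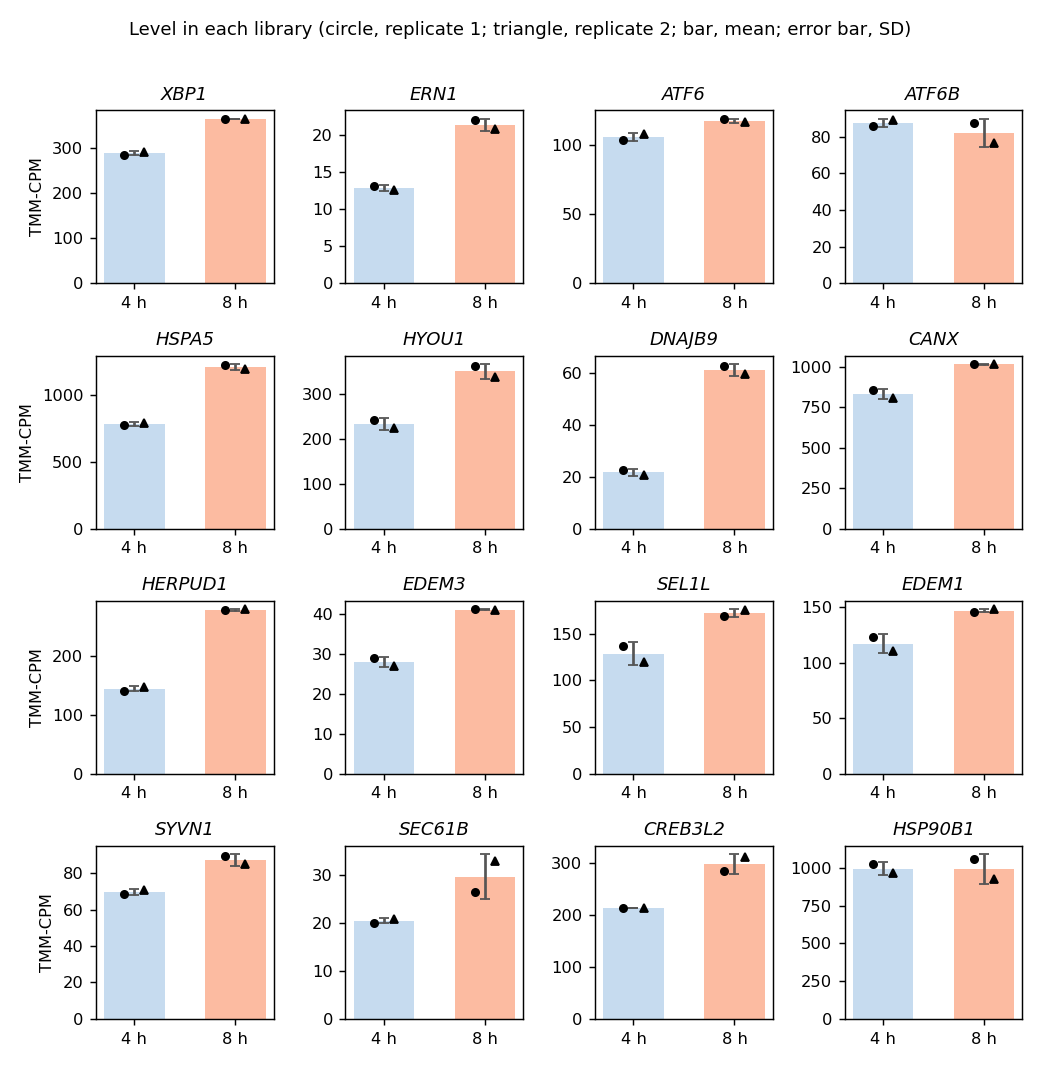
TMM-CPM of 16 members in each library at 4 h and 8 h of merbarone, with circles for replicate 1, triangles for replicate 2, bars for the mean and error bars for the SD (n = 2). The panels were picked, mostly from members that rose. In 14 panels both 8 h libraries lie above both 4 h libraries, and in ATF6B and HSP90B1 the times overlap. Over all 37 members this held for 20, and over all retained genes for 34.8%.

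Of the 11 chaperone and co-chaperone genes, 4 rose (36.4%) and 7 did not pass. Among all retained genes 19.9% were higher, and in the most abundant band 39.3%. DNAJB9 (NCBI Gene 4189, chromosome 7, 108210311 to 108215294, plus strand), which encodes the co-chaperone ERdj4 that binds misfolded proteins and restrains IRE1, had 22.6 and 20.8 TMM-CPM at 4 h and 62.9 and 59.5 at 8 h. Each 8 h library held more than 2 times the level of either 4 h library, with a fold change of 2.82 (95% interval 2.40 to 3.33, edgeR adjusted p = 8.52e-09). Its log2FC ran from 1.39 to 1.55 over all 12 alternatives.

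HSPA5 (NCBI Gene 3309, chromosome 9, 127997132 to 128003661, minus strand) encodes BiP, the main ER chaperone of the Hsp70 family and the protein that keeps the sensors inactive. It had 777 and 794 TMM-CPM at 4 h and 1230 and 1196 at 8 h. The means were 785 ± 12 and 1213 ± 24.4 (SD, n = 2), far apart relative to the replicates, and the rise was 1.54-fold (95% interval 1.4 to 1.7, edgeR adjusted p = 6.09e-07). HYOU1, an Hsp70-like protein that exchanges the nucleotide of BiP, went from 242 and 223 TMM-CPM to 362 and 338, which is 1.5-fold (95% interval 1.35 to 1.68, edgeR adjusted p = 7.58e-06). CANX, the membrane-bound lectin chaperone calnexin, went from 856 and 809 to 1015 and 1018 TMM-CPM (log2FC 0.29, edgeR adjusted p = 0.00222). Its call was lost without replicate 2 at 4 h (log2FC 0.25, adjusted p = 0.0732), where the lone 4 h library is assumed to vary like the others.

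The other 7 chaperone genes had log2FC of −0.05 to 0.13. HSP90B1, the ER form of Hsp90 known as GRP94, had 1023 and 965 TMM-CPM at 4 h and 1061 and 923 at 8 h. The times overlapped, and the log2FC was 0.00 with a 95% interval of −0.16 to 0.15, where that of HSPA5 was 0.49 to 0.77. The difference between these changes was not tested. Per kilobase of transcript, HSPA5 was at 0.539 and 0.584 of the level of HSP90B1 at 4 h and at 0.822 and 0.919 at 8 h. CALR, the soluble lectin chaperone calreticulin and the most abundant member per kilobase at both times, had a log2FC of −0.05 (95% interval −0.18 to 0.09). MANF and CRELD2, secreted ER stress proteins, had log2FC of 0.11 and 0.13, and SDF2L1, a partner of DNAJB11, had −0.03. The co-chaperone genes DNAJB11 and DNAJC3, which serve BiP as DNAJB9 does, had log2FC of 0.03 and 0.00, with 95% intervals of −0.18 to 0.23 and −0.18 to 0.19. SDF2L1 and CRELD2 rested on 56 to 93 and 161 to 257 counts, so a rise of the size of that of CANX lies within their intervals.

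**Figure D4:**
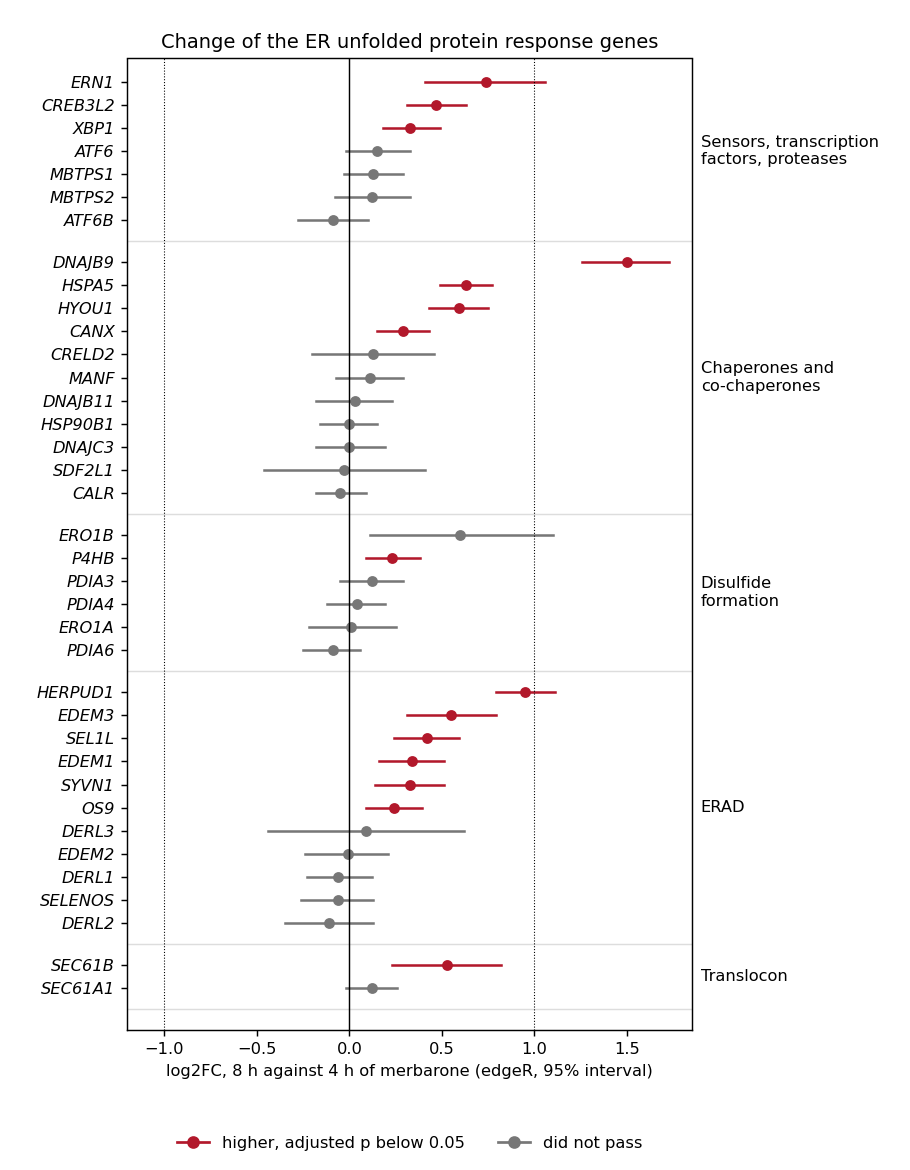
Log2FC of 8 h against 4 h for all 37 members by role, with 95% intervals from edgeR, red for members that rose and grey for those that did not pass, and dotted lines at −1 and 1. DNAJB9, at 1.5, is the only point beyond a dotted line, and ERO1B is the grey point whose interval lies above 0.

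Of the 6 genes of disulfide formation, P4HB alone rose (16.7%), where 19.9% of all retained genes were higher. It went from 1037 and 1121 TMM-CPM to 1217 and 1323 (log2FC 0.23, edgeR adjusted p = 0.0126). P4HB encodes protein disulfide isomerase, which also serves as a subunit of collagen prolyl hydroxylase, and its call was lost without replicate 1 at 4 h (log2FC 0.17, adjusted p = 0.230). The isomerases PDIA3, PDIA4 and PDIA6 had log2FC of 0.12, 0.04 and −0.09, all with overlapping times. ERO1A and ERO1B encode the oxidases that recharge these isomerases. ERO1A had a log2FC of 0.01 (95% interval −0.22 to 0.25). ERO1B, with 58 to 83 counts per library, had 6.08 and 5.48 TMM-CPM at 4 h and 7.04 and 10.8 at 8 h. Its log2FC was 0.60 with an adjusted p of 0.0503, and it was called higher under 6 of the 12 alternatives. It became 0.89 (adjusted p = 0.00320) without replicate 1 at 8 h and 0.28 (adjusted p = 0.444) without replicate 2 at 8 h.

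ERAD held the largest number of members that rose, 6 of 11 (54.5%). The shares were 42.9% of sensors, transcription factors and proteases, 36.4% of chaperone genes and 16.7% of disulfide genes. Over all retained genes 19.9% were higher, and in the most abundant band 39.3%. Differences between roles were not tested. HERPUD1 (NCBI Gene 9709, chromosome 16, 56966054 to 56978776, plus strand), a membrane scaffold of the ERAD complex and itself a short-lived protein, had 141 and 147 TMM-CPM at 4 h and 277 and 279 at 8 h. The times lay far apart relative to the replicates, and the fold change of 1.94 (95% interval 1.73 to 2.16, edgeR adjusted p = 1.84e-08) was second to that of DNAJB9. SYVN1, the ubiquitin ligase HRD1 at the core of the complex, went from 68.3 and 70.6 to 89.4 and 84.9 TMM-CPM (log2FC 0.33, edgeR adjusted p = 0.00665). SEL1L, the partner that stabilizes HRD1, went from 137 and 120 to 169 and 175 (log2FC 0.42, edgeR adjusted p = 0.000681). OS9, a lectin that brings misfolded glycoproteins to SEL1L, had a log2FC of 0.24 (edgeR adjusted p = 0.0112).

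The EDEM genes encode mannosidase-like proteins that mark glycoproteins for disposal, and EDEM1 and EDEM3 rose while EDEM2 did not pass. EDEM3 went from 28.9 and 27.0 to 41.2 and 41.0 TMM-CPM (log2FC 0.55, edgeR adjusted p = 0.000835), and EDEM1 from 123 and 111 to 146 and 148 (log2FC 0.34, edgeR adjusted p = 0.00342). EDEM2 had 40.2 and 41.4 at 4 h and 41.3 and 39.5 at 8 h, with a log2FC of −0.01 (95% interval −0.24 to 0.21). Per kilobase, EDEM3 was at 0.198 and 0.180 of the level of EDEM2 at 4 h and at 0.275 and 0.285 at 8 h. The difference between the paralogs' changes was not tested. DERL1, DERL2 and DERL3, which encode derlins of the exit channel, had log2FC of −0.06, −0.11 and 0.09, and SELENOS, which ties derlins to the extracting ATPase, had −0.06. None of these 4 passed. Without replicate 1 at 4 h the adjusted p was 0.0884 for SYVN1 (log2FC 0.30) and 0.113 for OS9 (0.23), and without replicate 2 at 4 h it was 0.0910 for EDEM1 (0.26) and 0.0931 for OS9 (0.24).

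Of the 2 translocon genes, SEC61B rose and SEC61A1 did not pass, where 19.9% of all retained genes were higher. SEC61B, the small beta subunit of the channel through which proteins enter the ER, had 20.1 and 20.9 TMM-CPM at 4 h and 26.4 and 33.0 at 8 h. The 8 h libraries were both higher but apart from each other (log2FC 0.53, edgeR adjusted p = 0.00573), and the adjusted p was 0.0624 without replicate 1 at 4 h (log2FC 0.49) and 0.0683 without replicate 2 at 8 h (0.36). SEC61A1, the channel-forming subunit, had 860 and 856 at 4 h and 927 and 934 at 8 h, with a log2FC of 0.12 (95% interval −0.02 to 0.26).

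Levels can be compared between genes only per transcript length, and here only roughly. Reads over exon junctions and in duplicated sequence were lost in mapping, and how much this differs between genes was not measured. The limit holds for all per-kilobase levels and ratios, here and above. Per kilobase of canonical transcript, mean levels in TMM-CPM ran from 1.16 for ERO1B to 778 for CALR at 4 h, and from 1.61 for DERL3 to 754 for CALR at 8 h. DNAJB9 went from 9.0 to 25.4 and HERPUD1 from 50.4 to 97.5, while HSPA5 went from 200 to 309. DNAJB9 was at 0.243 and 0.238 of the level of DNAJB11 at 4 h and at 0.707 and 0.627 at 8 h. Against DNAJC3 it was at 0.629 and 0.596 at 4 h and at 1.86 and 1.60 at 8 h. The order of these per-kilobase levels thus turned for DNAJC3 and not for DNAJB11. ERO1A stood at 6.13 and 6.40 times ERO1B at 4 h and at 5.39 and 3.25 times at 8 h, and ERN1 at 0.119 and 0.110 of ATF6 at 4 h and at 0.173 and 0.168 at 8 h.

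For 20 of the 22 members that did not pass, the 95% interval excluded a change of 1.5-fold in either direction, and the exceptions were ERO1B and DERL3. Exons of 14 members overlap those of another listed gene, and of these CANX, SYVN1 and OS9 rose. SYVN1 overlaps FAU on the same strand, and OS9 overlaps AGAP2-AS1. Since the use of strand in counting is not given in the sources used here, their counts are uncertain, as are those of HSPA5, PDIA3 and XBP1, which have pseudogene copies.

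Around the members, 6 further lists of ER genes were counted in the same fit. Over all retained genes 19.9% were higher and 18.8% lower, and in the most abundant band 39.3% and 14.9%. Of the 14 genes listed as the PERK arm, the translational branch of the response, 9 were higher (64.3%) and 2 lower, with a median log2FC of 0.44. Of these 14, 13 lay in the most abundant band, with 8 higher. The activity of PERK was not measured, and whether these changes came through PERK was not tested. EIF2AK3, the gene of PERK itself, had 30.0 and 27.6 TMM-CPM at 4 h and 44.3 and 43.8 at 8 h (log2FC 0.61, edgeR adjusted p = 0.000293), so that 2 of the 3 classical sensor genes rose. ATF4, the transcription factor of this arm, had a log2FC of 0.32 (edgeR adjusted p = 0.00315), which became 0.30 (adjusted p = 0.0559) without replicate 1 at 4 h and 0.18 (adjusted p = 0.0817) with the trend over mean level removed. DDIT3, the CHOP factor linked to cell death, rose from 304 and 314 to 586 and 550 (log2FC 0.88, edgeR adjusted p = 2.67e-08). TRIB3, a pseudokinase induced by CHOP, had a log2FC of 1.22. PPP1R15A, which encodes GADD34, the phosphatase subunit that restores translation, had a log2FC of 0.67, and ASNS, the asparagine synthetase, one of 0.61. The 2 genes that fell were ATF3 (−0.54) and CHAC1 (−0.36), both known targets of ATF4 and named after their values were seen. With the trend over mean level removed, 4 genes of this arm were lower.

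The other 5 lists had median log2FC of −0.04 to 0.19. Their shares of higher genes given here run over all bands of level. Of 32 other folding factors 8 were higher (25%) and 0 lower, led by SIL1 (log2FC 0.68), another exchange factor of BiP, and by HSPA13 (0.57), TXNDC12 (0.52), CRELD1 (0.45) and PRKCSH (0.38). The count of 0 lower stood at an unadjusted p and with Limma-Voom and DESeq2, but was 2 with library size alone and 3 with the trend removed. Of 29 other ERAD genes 10 were higher (34.5%) and 2 lower, led by UBXN6 (0.53). Of 34 genes of translocation and glycosylation 12 were higher (35.3%) and 1 lower, with SSR4 (0.54) the largest rise and TRAM2, a translocon-associated gene known from collagen synthesis, the fall (−0.74, from 948 and 1039 to 586 and 603 TMM-CPM). Of 21 genes of ER export and retrieval 7 were higher (33.3%) and 1 lower, led by SEC24A (0.89) and SEC24B (0.75), cargo adaptors of COPII vesicles. The most abundant band held 12 of the folding factors, 14 of the ERAD genes, 20 of the translocation genes and 14 of the export genes, of which 5, 7, 9 and 5 were higher. That band also held 2 of the other regulators, with 0 higher. Of all genes in the band, 39.3% were higher, and the differences from this share were not tested. Of 8 other regulators 1 was higher in edgeR, DDRGK1 (0.33), against 0 in DESeq2, and 0 were lower, also at an unadjusted p and with Limma-Voom and DESeq2, but 1 with library size alone and 1 with the trend removed.

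These list counts moved with the scaling and when single libraries were left out. With library size alone 5 other folding factors, 5 other ERAD genes and 7 genes of translocation and glycosylation were higher, and with the trend removed 5, 6 and 7, while 4 other ERAD genes were lower under both. Export genes higher numbered 4 with the trend removed, and DESeq2 gave 6 other ERAD genes higher. Without replicate 1 at 4 h, 5 other folding factors and 6 other ERAD genes were higher, 0 other ERAD genes were lower, and 3 in place of 6 genes over all lists were lower. Without replicate 2 at 4 h, 5 other ERAD genes and 7 genes of translocation and glycosylation were higher, 1 other ERAD gene was lower, and 2 genes of translocation and glycosylation were lower. The export gene that fell was SEC23A (log2FC −0.29), named after its value was seen. Among the fits with a library left out, SEC23A kept its call only without replicate 2 at 8 h. DESeq2 did not call it either (−0.28, adjusted p = 0.0528), while the other alternatives with every library did. DDRGK1 lost its call without replicate 1 at 4 h (0.19, adjusted p = 0.405) and without replicate 2 at 8 h (0.23, adjusted p = 0.203). Without replicate 2 at 8 h, 1 other folding factor and 1 other regulator were lower.

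**Figure D5:**
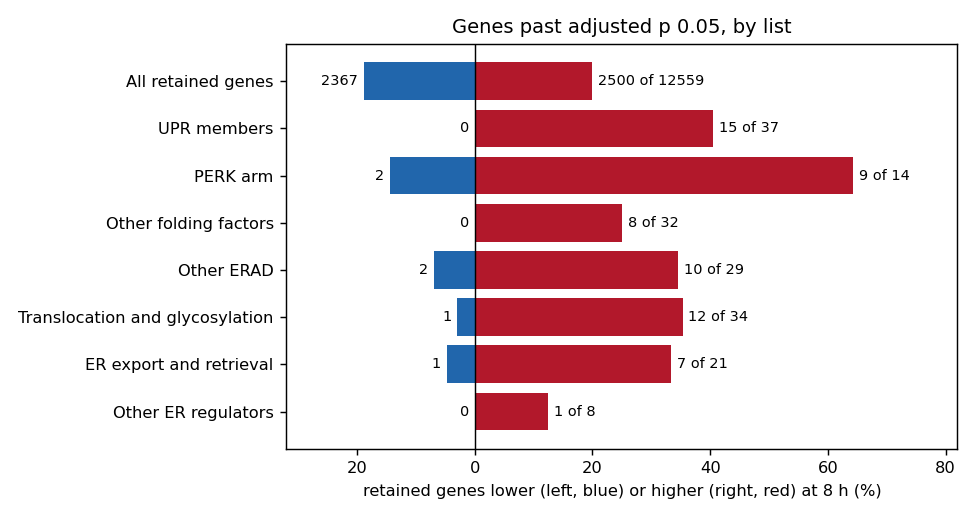
Percentage of retained genes that were higher (right) or lower (left) at 8 h at an adjusted p below 0.05 in edgeR, for all retained genes, the 37 members and the 6 further lists, with counts beside the bars. The members (15 of 37 higher, 0 lower) and the PERK arm (9 of 14 higher, 2 lower) have the longest bars to the right.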

How the data were processed

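RNA was profiled in 4 libraries of hTERT RPE-1 cells, made with a stranded poly(A) mRNA kit. The authors checked reads with FASTQC and mapped those with a single genome position to hg19 with Bowtie 1.2.0, which does not split reads across introns, so reads over exon junctions and in duplicated sequence are lost. The deposited values are raw counts per gene, from 8064450 to 10324697 per library. The annotation, the counting tool and its use of strand are not given in the sources used here.

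Genes with CPM above 1 in at least 2 libraries were retained (12559 of 23459, of which 23308 had a current NCBI symbol). In R 4.3.3, edgeR 4.0.16 fitted a quasi-likelihood model of time with TMM factors to all 4 libraries, and p-values were adjusted by Benjamini-Hochberg over all retained genes at a threshold of 0.05. The biological coefficient of variation was 6.52%. The edgeR fit, its replicate block, its trend removal, a fit with a library left out, Limma-Voom and DESeq2 were run on simulated counts. These counts held no trend with mean level. Library size alone, RLE factors and the CPM filters were not run on them.

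The members, the further lists and the tests were chosen with earlier results of these data known. Values in every library were given for XBP1, ERN1, ATF6, ATF6B, HSPA5, DEGs and the 12 members with the largest absolute log2FC among those that passed, and up to 5 genes were named per further list by the same ordering, besides EIF2AK3, ATF4 and DDIT3. Other members were given values per library where paralogs or calls that depend on a library were described. Alternatives were Limma-Voom (limma 3.58.1), DESeq2 1.42.0, library size alone, RLE factors, no CPM filter, a CPM minimum of 2, a replicate block, each library left out in turn and, chosen after seeing the data, removal of each library's trend with mean level by a lowess offset. Promoter windows came from RefSeq (GRCh38.p14) and had none for DERL1, DERL3 and PDIA3.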

Additional observations from a re-analysis of the deposited data

How the results depend on the processing

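No value of a member reversed its direction with a call under the 12 alternatives. HSPA5, HYOU1, DNAJB9, HERPUD1, SEL1L, EDEM3, XBP1, ERN1 and CREB3L2 were called higher under all 12. Members higher at 8 h numbered 12 to 16 under the 8 alternatives that keep every library and 11 to 16 with 1 library left out, against 15. With library size alone, which moved the median log2FC of all genes to −0.11, 1 member was lower (PDIA6, −0.20, adjusted p = 0.0446), the members' median was 0.02, and 13 genes of the further lists were lower. With the trend over mean level removed, 13 members were higher and 2 lower, CALR (−0.23, adjusted p = 0.0106) and PDIA6 (−0.24, adjusted p = 0.0193), the members' median was 0.07, or 0.06 above that of all genes, and 31 genes of the further lists were higher and 15 lower, against 47 and 6. Library size alone gave 32 of them higher and DESeq2 38. Calls lost with library size alone were those of P4HB, SYVN1 and OS9, and with the trend removed those of CANX, P4HB and OS9, where ERO1B was gained (0.77, adjusted p = 0.0158). Leaving out 1 library gave medians of 0.12 to 0.18, or 0.13 to 0.18 above all genes, and 33 to 50 genes of the further lists higher and 3 to 8 lower, where the cause was not tested. DESeq2 called 1782 of all genes higher and 1490 lower, against 2500 and 2367. Without replicate 1 at 4 h these counts were 1605 and 1509, and without replicate 2 at 4 h 1619 and 1522. The deviations of the libraries numbered 1 from their time means had a correlation of 0.048 over 12559 genes, which are not independent. With 2 libraries per time, this value cannot decide whether the numbers pair the libraries. The replicate block gave 16 members higher, ERO1B being added, and 2829 of all genes higher and 2664 lower. Low depth limits ERO1B, DERL3 and SDF2L1, with 35 to 93 counts per library.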

Other observations

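An exact ERSE or ERSE-II was also found before 20 retained genes that are no members, a count made after the promoter windows were seen. Of these, 2 were higher at 8 h, 5 lower and 13 did not pass, with a median log2FC of 0.00. Among all retained genes, 19.9% were higher and 18.8% lower, and the difference was not tested. Copies that may also lie in a member's window were not set aside. ALG12, among the 20 genes, has exons that overlap those of the member CRELD2 on the opposite strand. NUCB1, a calcium-binding protein of the Golgi, had a log2FC of 0.21 (edgeR adjusted p = 0.0386) and NAV2 had 0.54 (edgeR adjusted p = 9.14e-05). The genes that were lower were SHCBP1 (−1.27), ZNF143-AS1 (−1.07), SYNPO (−0.79), RAD9A (−0.69) and GYS1 (−0.37), the glycogen synthase of muscle and other tissues. FICD, which modifies BiP, SERP1, a translocon-associated protein, and ALG12, a mannosyltransferase of the ER, had log2FC of 0.09, 0.19 and 0.10 and did not pass.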
